A study of Mus musculus and Rattus norvegicus with 6 samples.

Results

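Cytochromes P450 of families 1, 2 and 3 are the heme enzymes with which the liver oxidises drugs, foreign chemicals, steroids and polyunsaturated fatty acids. The members were all probe sets whose annotated symbol was Cyp1, Cyp2 or Cyp3 followed by a subfamily letter and a number. They came to 91 of 76079 probe sets, 54 of 45037 on the mouse array and 37 of 31042 on the rat array. Leaving out probe sets with several symbols, they stood for 75 genes of 32410, 43 in mice and 32 in rats. Members of a subfamily are alike in sequence, and 5 probe sets carried more than 1 symbol: Cyp2a5 with Cyp2a4 and Cyp3a41b with Cyp3a41a in mice, and Cyp2a2 with Cyp2a1, Cyp2d5 with Cyp2d1 and Cyp2b2 with Cyp2b1 in rats.

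Liver RNA of leptin-deficient rodents and their wild-type (WT) control littermates was measured on short-oligonucleotide arrays 6 hours after an intraperitoneal injection. Leptin is the fat-derived hormone that restrains food intake, and the study asked which genes respond to it early. The mice had the C57/BL6J background and were WT given saline, Lepob/Lepob given saline or Lepob/Lepob given recombinant murine leptin. The rats had the F344/NSlc background and were WT given saline, Lepmkyo/Lepmkyo given saline or Lepmkyo/Lepmkyo given the same murine leptin. All animals were labelled male and were 20 weeks old. The mutant alleles are carried in every cell from conception, so a mutant liver is also that of an obese animal, and no WT animal given leptin was measured here. The rat labels do not match each other: titles and genotype fields read Lepmyo/Lepmkyo and the source field names Lepob, and the genotype used here is that of the descriptions. Each group was 1 array, and the labels do not say whether it held 1 animal or a pool. No difference below can therefore be set against variation between animals, no test was made, and "higher" and "lower" only say how the signal of 1 array stood to that of another.

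P450 genes are under several kinds of control, all given here as background. The nuclear receptors CAR (Nr1i3) and PXR (Nr1i2) induce Cyp2b, Cyp2c and Cyp3a genes in response to drugs and bile acids, and the aryl hydrocarbon receptor (Ahr) induces Cyp1 genes. Many Cyp2 and Cyp3 genes of rodent liver also differ between the sexes, because the pituitary releases growth hormone in pulses in males and more evenly in females. The enzymes themselves need electrons from P450 oxidoreductase (Por) and a supply of heme.

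The sequences just upstream of 5 mouse genes are shown because these genes carry the results that follow. Cyp2b9 and Cyp2b13 had the largest P450 ratios between mutant and WT mice, Cyp2b10 is their neighbour on the chromosome, and Cyp2c70 and Cyp1a2 were among the genes lower in mutants. They are RefSeq sequences of the GRCm38.p6 build, printed 5′ to 3′ on the strand of the gene, and stop before the first annotated transcribed base. Capitals mark AGGTCA, the half-site that nuclear receptors bind, in Cyp2b9 and Cyp2b13, CAAAGTCCA, a site of the liver factor HNF4A, in Cyp2c70, and the TATA box in Cyp1a2. Cyp2b10 has no capitals.
Cyp2b9 (chr7:26173159-26173301, plus strand): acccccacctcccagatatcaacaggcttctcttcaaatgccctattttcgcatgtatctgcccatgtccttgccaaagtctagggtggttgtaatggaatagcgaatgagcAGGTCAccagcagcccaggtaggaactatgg
Cyp2b13 (chr7:26061245-26061387, plus strand): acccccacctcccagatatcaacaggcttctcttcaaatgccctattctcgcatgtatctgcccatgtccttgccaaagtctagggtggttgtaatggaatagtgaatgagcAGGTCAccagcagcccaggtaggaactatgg
Cyp2b10 (chr7:25897408-25897657, plus strand): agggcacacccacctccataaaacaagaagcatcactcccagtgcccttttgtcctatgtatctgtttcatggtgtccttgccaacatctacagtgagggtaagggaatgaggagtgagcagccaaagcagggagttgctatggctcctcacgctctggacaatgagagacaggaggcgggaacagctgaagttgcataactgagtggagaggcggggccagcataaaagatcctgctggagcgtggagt
Cyp2c70 (chr19:40187287-40187536, minus strand): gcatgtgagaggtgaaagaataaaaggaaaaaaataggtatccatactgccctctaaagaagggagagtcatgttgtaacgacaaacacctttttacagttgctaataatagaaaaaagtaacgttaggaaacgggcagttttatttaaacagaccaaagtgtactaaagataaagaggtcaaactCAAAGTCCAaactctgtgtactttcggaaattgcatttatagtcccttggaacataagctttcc
Cyp1a2 (chr9:57683656-57683905, minus strand): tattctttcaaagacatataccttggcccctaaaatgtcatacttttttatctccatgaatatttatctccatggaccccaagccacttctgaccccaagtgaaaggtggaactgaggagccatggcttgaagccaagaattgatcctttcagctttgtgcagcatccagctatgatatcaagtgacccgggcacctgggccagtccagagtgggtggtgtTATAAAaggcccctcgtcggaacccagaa

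The Cyp2b9 and Cyp2b13 windows, from 250 bases before to 50 after the start, were identical at 298 of 300 bases (99.3%). Both differences lie in the printed stretch, T48C and C104T, with the Cyp2b9 base first and positions counted from 1 at the first printed base. Cyp2b10 matched either of them at 223 of 289 aligned bases (77.2%). For comparison, the Cyp2c38 and Cyp2c39 windows matched at 246 of 285 aligned bases (86.3%). The AGGTCA of Cyp2b9 and of Cyp2b13 begins 138 bases before the gene start of the reference table in both. That start lies downstream of the printed stretches: the annotated Cyp2b13 gene begins further upstream, where its stretch stops, and the Cyp2b9 stretch is printed to the same length.

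Of the 47 mouse P450 symbols, 39 had an upstream sequence, with 42 entries in all. Motifs were searched on both strands of the 250 bases before the start in these and in all 32851 entries of the reference table. AGGTCA was present in 12 of the 42 P450 entries (28.6%) and in 14.0% of all entries. CAAAGTCCA was present in 7 P450 entries (16.7%), those of Cyp2c65, Cyp2c68, Cyp2c70, Cyp3a11, Cyp3a16, Cyp3a41a and Cyp3a41b, and in 0.384% of all. TATAAA was found in 21 P450 entries (50%) and in 12.4% of all. GCGTG, the core bound by the aryl hydrocarbon receptor, was found in 7 (16.7%) against 28.2%, and TTCNNNGAA, bound by STAT5, in 1 (Cyp2j11, 2.38%) against 7.02%. The Cyp2c70 stretch also holds an AGGTCA, in lower case, that does not overlap the capitals. A match is a string of letters and says nothing of whether a factor binds there.

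Signals are MAS5 intensities in arbitrary units, scaled by the authors to a common trimmed mean per array. The median over every value of the species served as a floor (82.7 for mice, 97.0 for rats). Dimmer values were raised to it for ratios, so such a ratio is only a bound, written "at least". A gene was taken as its brightest probe set with 1 symbol, was measured where either array of a comparison reached the floor, and was called at 2-fold. On the mouse array 44 of the 54 members reached the floor on at least 1 array, and on the rat array 30 of 37 did. In mice, Cyp1a1, Cyp2b19, Cyp2c65, Cyp2g1, Cyp2j11, Cyp2j13, Cyp2s1, Cyp3a16 and 2 of the 3 Cyp1b1 probe sets lay under it on all 3 arrays. In rats, Cyp1a1, Cyp1b1, Cyp2a3, Cyp2b12, Cyp2b21, Cyp2g1 and Cyp2s1 did. The only spread these arrays give is that between probe sets of 1 gene. It shows how far probe sets on the same 2 arrays disagree and is not the error of a gene's ratio. Its pooled SD on the log2 scale was 0.45 over 5333 mouse genes and 0.44 over 2397 rat genes in the genotype comparison, and 0.26 over 5021 and 0.25 over 2243 genes in the leptin comparison.

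The tissue and sex given by the labels were set against marker genes. Of 12 hepatocyte markers 10 were on each array and all 10 were above the floor in both species, while in mice all 3 adipocyte markers on the array lay under it. In mice, Xist, the RNA of the inactive X chromosome in females, was under the floor on all 3 probe sets and all arrays, and the Y-linked Eif2s3y was at 3136, 2763 and 2709 in WT saline, mutant saline and mutant leptin. In rats, the label and the data did not match. Xist was above the floor on all 4 probe sets and all 3 arrays, for example at 5572, 3034 and 2506 on 1 of them. The Y-linked Eif2s3y (783, 1256 and 1218) and Uty (1600.3, 1173 and 1155) were above it as well. Xist was 1.42- to 1.98-fold lower in mutant than in WT saline rats. These genes were looked at after their values were seen. What the rat RNA held was not tested, and the sex-dependent rat P450 genes are to be read with it.

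In Lepob/Lepob mice given saline, Cyp2b9 and Cyp2b13 went from a signal near or under the floor to a bright one, Cyp2c38 and Cyp2c39 were also higher, and Cyp1a2, Cyp2u1, Cyp2d13 and 6 Cyp2c genes were lower than in WT. Of 35 P450 genes measured, 4 were at least 2-fold higher (11.4%), where 4.46% of all 11956 measured genes were. At least 2-fold lower were 9 (25.7%), where 3.71% of all genes were. The remaining 22 were within 2-fold, and 18 of these within 1.5-fold. The median log2 ratio of the P450 genes was -0.40 and that of all genes -0.03, with 24 of the 35 P450 genes below 0. Hepatocyte markers had a median of -0.42, with 9 of 10 below 0, and their summed signal was 433600.0 in WT, 325000.0 in mutant saline and 333400.0 in mutant leptin. Markers of Kupffer cells and macrophages had a median of 0.46 (12 genes, 2 of them called higher), and those of stellate cells and matrix 0.48 (10 genes). Markers of pericentral hepatocytes, around the central vein, had a median of -0.07 (10 genes, 4 above and 6 below 0, 1 called lower). Those of periportal hepatocytes had -0.09 (7 genes, 3 above and 4 below 0, none called). In RNA of whole liver, fewer cells of a type and less RNA per cell cannot be told apart, and the part of cell composition in the P450 ratios was not tested. The brightest signal on the array was 80930.2 in WT and 54634.4 in mutant saline. After quantile normalization the log2 ratios of the bright Cyp3a11 and Cyp2e1 went from -0.40 each to -0.02 and -0.03. The P450 median went to -0.22 and that of all genes to 0.04. The part of array scaling in these ratios was not tested either.

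**Figure D1:**
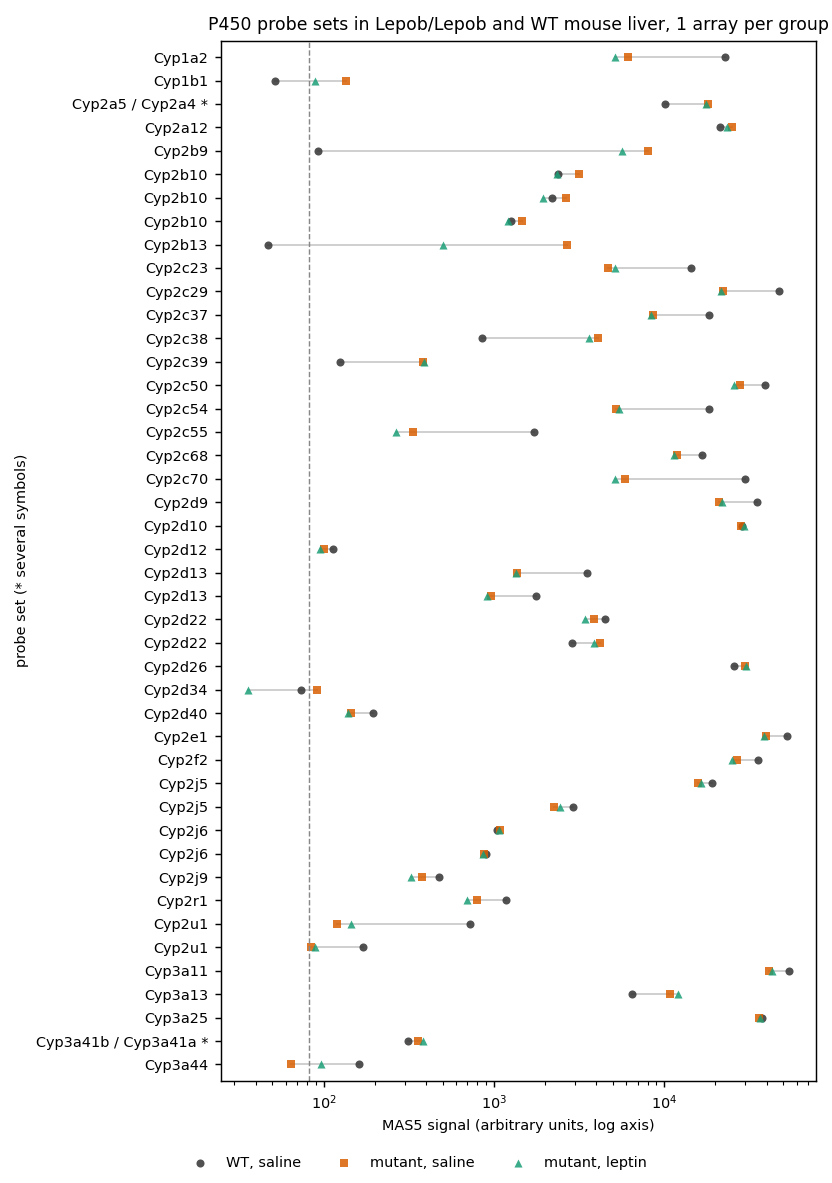
Signal of each mouse P450 probe set above the floor (dashed line) on at least 1 array, on a log axis in arbitrary MAS5 units. Circles are WT saline, squares Lepob/Lepob saline and triangles Lepob/Lepob leptin, 1 array each. Cyp2b9 runs from 93.4 in WT to 8032 in mutant saline, and most triangles lie close to the squares.

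The family 1 enzymes are the targets of the aryl hydrocarbon receptor. Cyp1a2, which oxidises caffeine and aromatic amines, had a signal of 22922 in WT saline, 6164 in mutant saline and 5158 in mutant leptin. Both mutant arrays were thus low, 3.72-fold for saline against WT, and leptin left a log2 ratio of -0.26. Cyp1b1, an estrogen and hydrocarbon hydroxylase, was under the floor in WT at 52.0, and at 135.9 and 89.4 in the mutants, too dim for a call. Cyp1a1 (81.0, 70.3 and 60.5) stayed under the floor.

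The Cyp2a and Cyp2b enzymes hold the coumarin and phenobarbital-inducible hydroxylases. Cyp2b9 was at 93.4 in WT, 8032 in mutant saline and 5645 in mutant leptin, 86.0-fold higher in mutant than in WT saline. Cyp2b13 was at 47.5, 2688 and 501, at least 32.5-fold higher. Both genes are known for higher expression in female than in male mouse liver. The WT signal of Cyp2b9 sat just above the floor and that of Cyp2b13 under it, and both mutant arrays stood far above it. Cyp2b10, the main CAR target of the subfamily, was at 2389.8, 3158 and 2355, so that all 3 arrays were bright and close together. Its 3 probe sets gave genotype log2 ratios from 0.21 to 0.40. Cyp2a12, a steroid hydroxylase, was at 21240.0, 25139 and 23318, a log2 ratio of 0.24. The probe set shared by Cyp2a5, a coumarin hydroxylase, and Cyp2a4, a testosterone hydroxylase, read 10135, 18157 and 17604, with a ratio of 0.84 that cannot be given to either gene.

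The Cyp2c enzymes, which include epoxygenases and hydroxylases of arachidonic acid, moved in both directions. Of 10 measured, 6 were at least 2-fold lower in mutant saline mice, 2 higher and 2 within 2-fold, with a median log2 ratio of -1.09. Cyp2c70, which makes the muricholic acids that set mouse bile apart, was at 29908 in WT, 5871 in mutant saline and 5156 in mutant leptin, 5.09-fold lower. Cyp2c55 was at 1732, 337 and 266, which was 5.15-fold lower, and Cyp2c54 at 18439, 5234 and 5466, which was 3.52-fold lower. Both mutant arrays lay well under WT for all of these. Cyp2c23, an epoxygenase, was at 14326, 4698 and 5135, on a single probe set with the suffix _s_at, which may hybridise to more than 1 transcript. Cyp2c29 was at 47197, 22084 and 21509, and Cyp2c37 at 18242, 8654 and 8322.5, so these last genes passed the 2-fold line narrowly, at 2.14- and 2.11-fold. In the other direction, Cyp2c38 was at 851, 4069 and 3635, 4.78-fold higher in mutant saline. Cyp2c39, which is also higher in female liver, was at 125, 384 and 387, 3.09-fold higher from a WT signal not far above the floor. Cyp2c50 (38976, 27871 and 25747) and Cyp2c68 (16591, 11962 and 11405) had log2 ratios of -0.48 and -0.47.

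Many of these genes lie in clusters in the mouse genome. In the order of RefSeq protein-coding P450 genes, Cyp2b10, Cyp2b13 and Cyp2b9 follow one another on chromosome 7, with log2 ratios of 0.40, 5.02 and 6.43. On chromosome 19, Cyp2c39 and Cyp2c38, both higher, are neighbours. Cyp2c29, lower, comes before them, and Cyp2c68 follows after Cyp2c67, which has no probe set of its own symbol. Last in the chromosome 19 order come Cyp2c37, Cyp2c54, Cyp2c50, Cyp2c70 and Cyp2c23, all with ratios below 0, and 4 of these 5 were at least 2-fold lower. The order counts P450 genes only and gives no distances, so it does not place Cyp2c23 in the same cluster as the others.

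**Figure D2:**
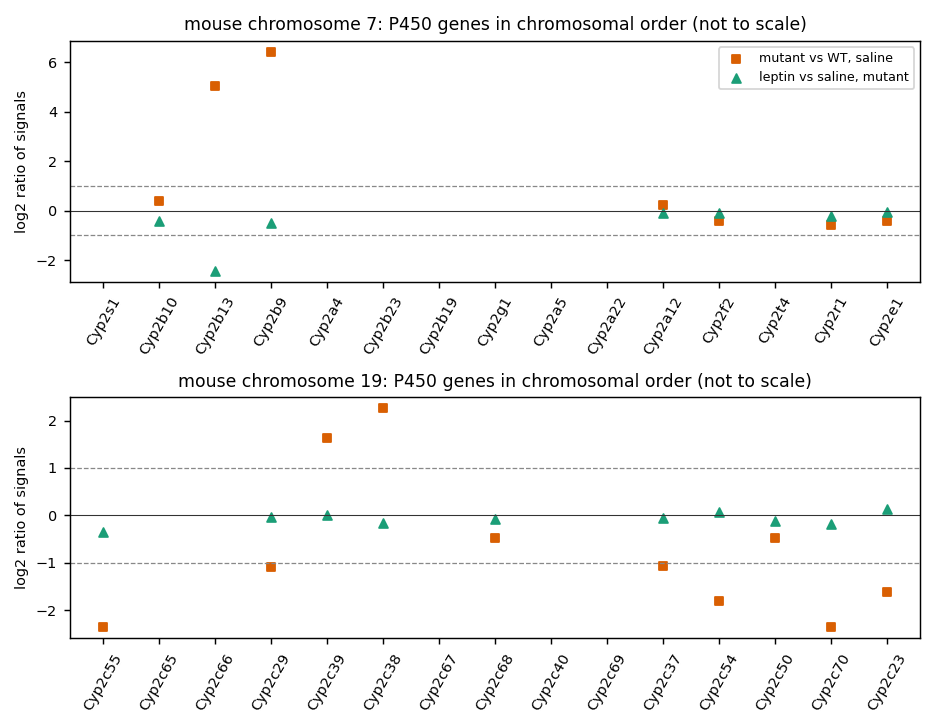
Log2 ratios of the mouse P450 genes in their order along chromosomes 7 and 19 (order only, no distances), squares for mutant against WT saline and triangles for leptin against saline in mutants. A gene without a symbol was not measured. The squares of Cyp2b13, Cyp2b9, Cyp2c39 and Cyp2c38 stand above the dashed 2-fold line, with measured neighbours below 0 on chromosome 19.

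The Cyp2d enzymes, relatives of the human debrisoquine hydroxylase, differed less, with a median log2 ratio of -0.19 over 8 genes and 1 call. That call was Cyp2d13, a transcribed pseudogene in RefSeq, at 3503, 1370 and 1342, which was 2.56-fold lower (log2 ratio -1.35), while its second probe set gave -0.88, short of 2-fold. Cyp2d9, a testosterone hydroxylase of male liver, was at 34907, 21121 and 21741, a ratio of -0.72. Cyp2d10 (28716, 28412 and 29351) and Cyp2d26 (25897, 29987 and 30170.1) were nearly level across all 3 arrays. Cyp2d22 was at 4496, 3879 and 3443, a ratio of -0.21, and its other probe set stood the other way at 0.55. Cyp2d12 (113, 101 and 95.7), Cyp2d34 (73.4, 91.3 and 36.0) and Cyp2d40 (196, 144.5 and 138.5) were close to the floor, where ratios say little.

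Among the single-gene subfamilies, Cyp2u1, a fatty acid hydroxylase, was at 725 in WT saline, 121 in mutant saline and 145 in mutant leptin. That is 6.01-fold lower, the largest ratio on the low side among the P450 genes, and its dimmer probe set (169.8, 84.9 and 89.5) gave a log2 ratio of -1.0. Cyp2e1, which oxidises ethanol, was at 52551, 39720 and 38737, and Cyp2f2, which activates naphthalene, at 35444, 26879 and 25097, each with a ratio of -0.40. Cyp2r1, a vitamin D hydroxylase, was at 1175, 796 and 692, a ratio of -0.56. The epoxygenase Cyp2j5 was at 19082, 15921 and 16492, a ratio of -0.26. Its relatives Cyp2j6 (1041, 1081 and 1075) and Cyp2j9 (475, 379.9 and 326) had ratios of 0.05 and -0.32. None of these 6 genes, from Cyp2e1 on, was 2-fold apart on any pair of arrays compared.

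The Cyp3a enzymes, which oxidise steroids and a large share of drugs, gave no 2-fold call among 4 measured genes. Cyp3a11, the main PXR target, was at 54377, 41215 and 43175, a log2 ratio of -0.40. Cyp3a13 was at 6475, 10769 and 12142, a ratio of 0.73. Cyp3a25 was nearly level at 37457, 35936 and 36631. Cyp3a44, known from female liver, was at 161 in WT and under the floor at 64.5 in mutant saline, so its ratio of -0.96 is a bound that stops just short of 2-fold. The probe set shared by Cyp3a41b and Cyp3a41a read 313, 361 and 382.

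A list of 12 P450 genes with higher expression in female mouse liver had 7 genes on the array under their own symbol and 5 measured. Cyp2b9, Cyp2b13 and Cyp2c39 were at least 2-fold higher, where 4.46% of all genes were. None was called 2-fold lower, where 3.71% of all genes were, and the median log2 ratio was 1.63. Cyp2b10 and Cyp3a44, at 0.40 and -0.96, were the other measured members. The ratio of Cyp3a44 is a bound, as its mutant saline signal lay under the floor, so the gene may be 2-fold lower or more. Cyp2a4, Cyp3a41a and Cyp3a41b are listed too but have only shared probe sets, so they were not counted. The probe set of Cyp2a5 with Cyp2a4 had a ratio of 0.84, and that of Cyp3a41b with Cyp3a41a 0.205. The 3 genes listed as higher in males, with Cyp2u1 and Cyp2d9 among them, all had ratios below 0 (median -0.72), and Cyp2u1 was called lower. Among all 35 measured mouse P450 genes, 24 lay below 0. Both lists were drawn up with earlier results of these arrays known, and counts of so few genes carry little weight.

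Partners and regulators of the P450 genes were taken from lists of their own. Of 12 measured partners and heme genes in mice none was 2-fold apart (median -0.17), and Alas1, the first step of heme synthesis, had a ratio of 0.39. Of 20 receptors and liver factors 1 was higher and 2 lower (median -0.09), where 4.46% and 3.71% of all genes were. The higher one was Ppara, the fatty acid receptor, at 2229.8 in WT and 7564 in mutant saline (3.39-fold). The lower ones were Onecut1, at 1625 and 202 (8.03-fold), and the pioneer factor Foxa1, at 1933 and 572 (3.38-fold). The receptors named above had log2 ratios of 0.24 (Nr1i2), 0.74 (Nr1i3) and 0.66 (Ahr), and Hnf4a had -0.21. So none of the receptors that induce Cyp1, Cyp2b or Cyp3a genes was 2-fold apart.

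Of 12 measured genes of the growth hormone axis, 4 were at least 2-fold lower in mutant saline mice and none higher, where 3.71% of all genes were lower. Their median log2 ratio was -0.38, close to the -0.42 of the hepatocyte markers. Socs2, a target and feedback inhibitor of the growth hormone receptor, was at 3742 in WT and 518 in mutant saline (7.23-fold). Cish, another such inhibitor, was 2.44-fold lower, Igfals, a carrier of insulin-like growth factor, 2.49-fold lower, and Onecut1, also on this list, is given above. Stat5b, which carries the signal, had a ratio of -0.88, and the repressors Bcl6 and Cux2 had -0.04 and -0.23.

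Genes outside the P450 families that CAR, PXR or the aryl hydrocarbon receptor induce were called in both directions. Of 18 measured, 5 were at least 2-fold higher and 2 lower (median 0.50), where 4.46% and 3.71% of all genes were. The efflux pump Abcb1a was at least 8.97-fold higher (59.0 in WT and 742 in mutant saline), the glutathione transferase Gstm3 4.49-fold and the quinone reductase Nqo1 3.17-fold. The bile acid and drug carrier Slco1a4 was 2.41-fold and Gsta2 2.29-fold higher. Lower were the glucuronosyltransferase Ugt2b1 (2.51-fold) and the carboxylesterase Ces2a (2.41-fold). The clock output factors Dbp, Tef and Hlf, which bind P450 promoters, were 24.7-, 2.90- and 2.0-fold higher, and their antagonist Nfil3 2.08-fold lower. The part of any of these regulators in the P450 ratios was not tested.

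**Figure D3:**
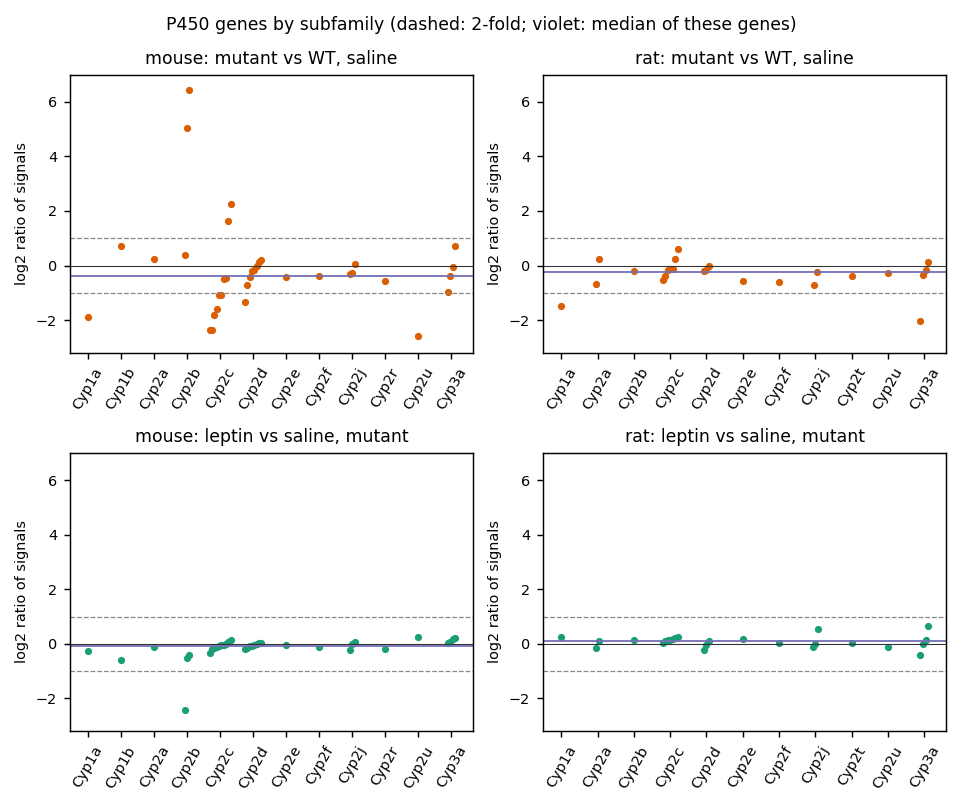
Log2 ratio of each measured P450 gene by subfamily, mice left and rats right, mutant against WT saline above and leptin against saline in mutants below. Dashed lines mark 2-fold and the violet line the median. Mouse Cyp2c genes range from -2.36 to 2.26 in the genotype panel, while in the leptin panels only mouse Cyp2b13 lies past a dashed line.

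After leptin, 1 P450 gene of Lepob/Lepob mice was 2-fold apart from mutant saline 6 hours after the injection. This was Cyp2b13, at 2688 without and 501 with leptin, 5.36-fold lower. The 35 measured genes thus had 1 lower call (2.86%), where 0.243% of all 11536 measured genes were lower, and 0 higher calls, where 0.182% were. Within 1.5-fold lay 33 of the 35, and the median log2 ratio was -0.06 against -0.00 for all genes. The leptin and the genotype comparison share the mutant saline array, so a value that is off on that array moves both ratios in opposite directions, and the signals are best read side by side.

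The 3 Cyp2b genes all read lower with leptin. Cyp2b9 had a log2 ratio of -0.51 and stayed at 5645, far above its WT signal of 93.4. Cyp2b13, at 501, also stayed above its WT signal of 47.5. Cyp2b10 had a ratio of -0.42, and from -0.46 to -0.27 over its 3 probe sets, which brought it to 2355, next to the WT value of 2389.8. Cyp1b1, the other gene past 1.5-fold, read 135.9 without and 89.4 with leptin.

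The P450 genes lower in mutants read much the same with and without leptin. Cyp1a2 had a log2 ratio of -0.26, Cyp2c55 of -0.34 and Cyp2c70 of -0.19. Cyp2c23, Cyp2c54 and Cyp2u1 had 0.13, 0.06 and 0.26. The 10 Cyp2c genes had a median of -0.06, the 8 Cyp2d genes -0.05 and the 4 Cyp3a genes 0.12. Cyp2c38 and Cyp2c39, the higher ones, had -0.16 and 0.01. Apart from the Cyp2b genes, Cyp1b1 and Cyp2c55, no leptin ratio in mice lay further from 0 than the 0.26 of Cyp2u1, which equals the pooled spread between probe sets of a gene (0.26).

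No gene of the partner, receptor, growth hormone, xenobiotic target or clock output lists was 2-fold apart after leptin in mice. Nr1i2 and Nr1i3 had log2 ratios of 0.31 and -0.12, Socs2 0.37 and Dbp 0.25. The 5 xenobiotic targets called higher in mutants had -0.45 (Abcb1a), -0.48 (Gstm3), -0.48 (Nqo1), -0.27 (Gsta2) and -0.01 (Slco1a4). Hepatocyte markers had a median of 0.04, and neutrophil markers 1.16, with 3 of 5 at least 2-fold higher, where 0.182% of all genes were. The part of these cell types in the Cyp2b ratios was not tested.

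In Lepmkyo/Lepmkyo rats given saline, Cyp3a9 and Cyp1a2 were lower than in WT and no P450 gene was 2-fold higher. Of 24 measured genes 2 were called lower (8.33%), where 1.45% of all 9817 measured genes were, and 0 were called higher, where 2.99% were. The median log2 ratio was -0.23 against 0.04 for all genes, and 20 of the 24 P450 genes lay below 0, while 55.2% of all genes lay above it. Hepatocyte markers were below 0 in 10 of 10 (median -0.18). Markers of pericentral hepatocytes, the cells around the central vein that hold much of the P450 content, were below 0 in 8 of 8, with a median of -0.74. Of these, Oat (-2.22), Tbx3 (-1.41) and Axin2 (-1.08) were called lower, and the summed signal of the list was 58140.0 in WT, 32600.0 in mutant saline and 37580.0 in mutant leptin. Other hepatocyte markers were low as well. Periportal markers were below 0 in 8 of 10 (median -0.26), 1 called higher and 2 lower, Sds at 7.43-fold and Hal at 2.24-fold, and the general hepatocyte marker Tat was 6.94-fold lower. For stellate cells and matrix the marker median was 0.84 over 9 genes, 4 of them called higher. The part of zonation or of cell composition in the rat P450 ratios was not tested.

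**Figure D4:**
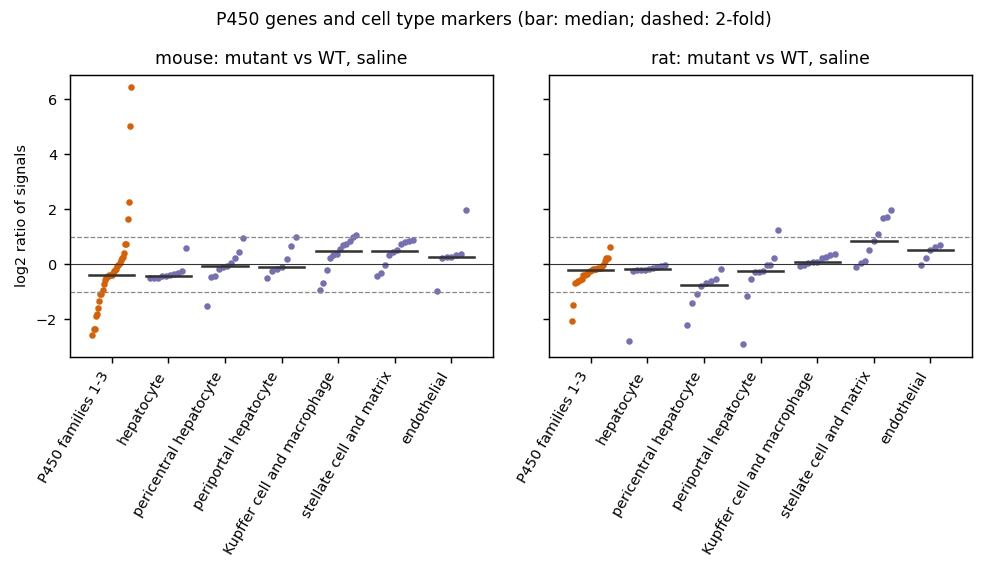
Log2 ratios of mutant against WT saline for the P450 genes and for markers of liver cell types, mice left and rats right, 1 point per measured gene, with the median as a bar and 2-fold as dashed lines. Rat pericentral markers have a median of -0.74 and rat stellate markers of 0.84, on either side of the P450 median of -0.23.

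Cyp3a9, a steroid hydroxylase that is higher in female rats, was at 17830.4 in WT saline, 4308 in mutant saline and 3246 in mutant leptin, 4.14-fold lower without leptin. Cyp1a2 was at 14756, 5237 and 6212.5, which was 2.82-fold lower. In both genes the mutant arrays lay far from WT and near each other. The Xist signals given above differed between the same arrays in the same direction as Cyp3a9, and how much of the Cyp3a9 ratio goes with them was not tested.

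The sex-dependent P450 genes of the rat are a textbook pair of sets, and both were bright on all 3 arrays. As all rats were labelled male, the bright female-predominant genes stand beside the Xist signals given above. What the rat RNA held was not tested, so these signals cannot be taken as those of male liver. Cyp2c12, the steroid sulfate hydroxylase of female liver, was at 36492, 25122 and 28946, a log2 ratio of -0.54. Cyp2a1 was at 18330.1, 11595 and 10345, a ratio of -0.66, and Cyp2c7 at 39623, 34992 and 39133, a ratio of -0.18. All 4 female-predominant genes, Cyp3a9 included, thus lay below 0 (median -0.60), and 1 was 2-fold lower, where 1.45% of all genes were. Among all 24 measured rat P450 genes, 20 lay below 0 and 4 above it, so the direction of the 4 female-predominant genes says little. Of the 6 male-predominant genes 4 lay above 0 (median 0.18) and none was 2-fold apart. Cyp2c11, the main testosterone hydroxylase of male liver, was at 29009, 26255 and 28878. Cyp2c13 was at 19152, 22544 and 26819, Cyp2a2 at 9714, 11413 and 12389.6, and Cyp2c22 at 20595, 31551 and 33835, the last with the largest positive ratio of any rat P450 gene, 0.62. Cyp3a2 was at 16410.2, 14541 and 22835, and Cyp3a18 at 11549.6, 12582 and 13895.

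The remaining rat genes lay within 2-fold. Cyp2e1 was at 44068, 29511 and 33102, a log2 ratio of -0.58. Cyp2f4, the naphthalene enzyme, was at 2196, 1429 and 1442, and Cyp2j4 at 3179.8, 1962.5 and 1815, ratios of -0.62 and -0.70. These 3 had lower signals on both mutant arrays than in WT. The PXR target Cyp3a23-3a1 was at 37260.5, 29409 and 29587, a ratio of -0.34. Cyp2c23, the main rat epoxygenase, was at 29509, 22642 and 22953. Cyp2b3 was at 23975, 20960.1 and 22875, and the probe set shared by the phenobarbital-inducible Cyp2b2 and Cyp2b1 at 19050.5, 13200.2 and 18675, ratios of -0.19 and -0.53. Cyp2d2 (32654, 29391 and 31979) and Cyp2d3 (27636, 23950 and 22964) differed little between arrays, and the 2 probe sets of Cyp2d4 gave -0.02 and 0.18. Cyp2c6v1 was at 39173, 35905 and 39246, Cyp2j3 at 3956, 3333.5 and 3303, Cyp2t1 at 787, 602 and 617, and Cyp2u1 at 731, 603 and 549. Their ratios ran from -0.39 to -0.13, all below 0 and within 1.5-fold. The shared probe sets of Cyp2a2 with Cyp2a1 (24710.3, 18335 and 20668) and of Cyp2d5 with Cyp2d1 (22309, 19608 and 19964) had -0.43 and -0.19.

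**Figure D5:**
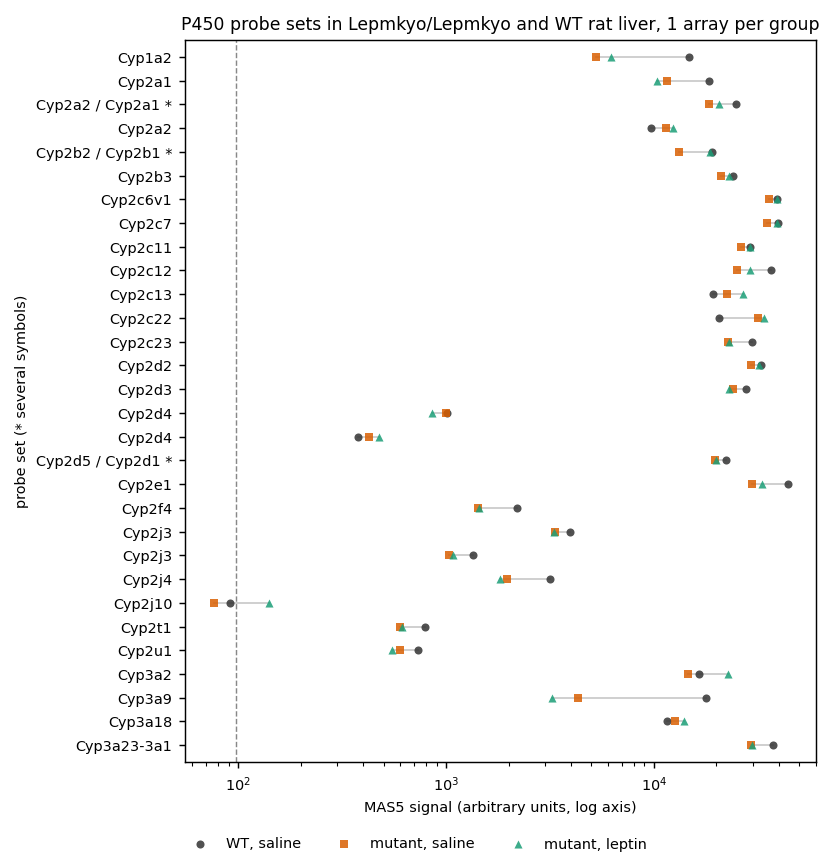
Signal of each rat P450 probe set above the floor (dashed line) on at least 1 array, on a log axis in arbitrary MAS5 units. Circles are WT saline, squares Lepmkyo/Lepmkyo saline and triangles Lepmkyo/Lepmkyo leptin, 1 array each. The gap between circle and square is widest for Cyp3a9 (17830.4 and 4308) and next for Cyp1a2 (14756 and 5237).

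Of the regulator lists in rats, the growth hormone axis had 5 of 13 measured genes at least 2-fold lower and none higher (median -0.27), where 1.45% of all genes were lower. These were Cux2, a repressor of male genes that is itself higher in female liver, at 787 in WT and 162 in mutant saline (4.86-fold), the prolactin receptor Prlr at 8244.5 and 1946 (4.24-fold), Onecut1 (3.04-fold), Igfals (2.28-fold) and Socs2 (at least 2.34-fold). Onecut1 was the only call among 18 receptors and liver factors (median -0.08). Nr1i2 had a log2 ratio of -0.92, Nr1i3 of 0.17 and Hnf4a of -0.05, and Ahr, under the floor in mutant saline, a bound of -0.82. Stat5b had -0.29 and Bcl6 0.03. No gene was called among 13 partners and heme genes (median -0.04), where Por had -0.57 and Alas1 -0.39. Of 18 induced genes outside the P450 families, Gstp1 and Gstm3 were 2.74- and 2.43-fold higher (median -0.17), and Dbp was 2.0-fold higher. Of all measured genes, 2.99% were at least 2-fold higher.

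Leptin in Lepmkyo/Lepmkyo rats left all 25 measured P450 genes within 2-fold of mutant saline at 6 hours. There were thus 0 higher calls, where 0.237% of all 9705 genes were higher, and 0 lower, where 0.278% were. Of the 25, 24 were within 1.5-fold and 18 lay above 0, with a median log2 ratio of 0.12 against 0.01 for all genes. Hepatocyte markers had the same median, 0.12, with 10 of 10 above 0. The gene past 1.5-fold was Cyp3a2, a male-predominant steroid hydroxylase, at 14541 without and 22835 with leptin, a ratio of 0.65, which put it above its WT signal of 16410.2. The shared Cyp2b2 and Cyp2b1 probe set had a ratio of 0.50. All 7 Cyp2c genes had ratios above 0, from 0.02 to 0.25. Cyp3a9 had -0.41 and Cyp1a2 0.25, so neither came near its WT signal. Cyp2j10, under the floor on both saline arrays, read 140.4 with leptin.

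Around the P450 genes, leptin in rats came with 3 calls on the lists. There was 1 higher of 13 partners and heme genes. Called lower were 1 of 16 receptors and liver factors and 1 of 12 growth hormone axis genes. None of the 18 induced genes outside the P450 families and of the 4 clock factors was called. Of all measured genes, 0.237% were higher and 0.278% lower. The heme oxygenase Hmox1 was at 1606.5 without and 3564 with leptin (2.22-fold higher), Cish at 522 and 126 (4.16-fold lower), and the coactivator Ppargc1a at 257 and 128.5 (2.0-fold lower). Por, Nr1i2 and Nr1i3 had log2 ratios of 0.03, 0.06 and -0.35, and Stat5b and Bcl6 of 0.52 and 0.78. None of these 5 was 2-fold apart.

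The species were compared only by identical symbol, since many P450 genes have no one-to-one partner. Of 8 shared symbols 4 were measured in both genotype comparisons, and all 4 were lower in mutants of both species. Most P450 genes were, with 24 of 35 in mice and 20 of 24 in rats below 0, so this count says little about the shared genes. Cyp1a2 was the only one past 2-fold in both (log2 ratios of -1.89 in mice and -1.49 in rats). Cyp2c23 had -1.61 and -0.38, Cyp2u1 -2.59 and -0.28, and Cyp2e1 -0.40 and -0.58. Rat Cyp2c23, rat Cyp2u1 and mouse Cyp2e1 lay within the pooled spread between probe sets (0.44 in rats and 0.45 in mice). That spread is not the error of a ratio, so it does not mark the larger ratios as real. With leptin, Cyp1a2 had -0.26 in mice and 0.25 in rats. Whether the species differ was not tested.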

How the data were processed

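Per the labels' protocols, liver RNA was prepared with Trizol, labelled with biotin and run on Affymetrix arrays. The deposited values are linear signal intensities that the authors computed with MAS5, per the submitters' processing notes (version not given in the sources used here). No detection calls were used here, so a floor stands in for them, and MAS5 brings arrays to the same trimmed mean (496 to 497 for the 6 arrays), which leaves their medians unequal. The number of arrays, 1 per group, limits the precision.

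Genes were named from the annotation of each platform. On the mouse array, 34945 of 45037 probe sets had 1 symbol, 932 several and 9160 none, and 34741 were updated to GRCm38.p6 symbols through their gene identifier. In rats 20826 had 1 symbol, 436 several and 9780 none. Floor, ratio, representative probe set and 2-fold call are as in the results, with floor and calls taken over the whole table. Every P450 member is named. Genes of the partner and regulator lists are named where at least 2-fold apart in a comparison, beside Nr1i2, Nr1i3, Ahr, Por, Alas1, Hnf4a, Stat5b, Bcl6, Cux2 and Dbp. The members and lists were chosen with earlier results of these data known.

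Ratios were computed with Python 3.11.15, numpy 2.4.6 and pandas 2.3.3, upstream sequences aligned with Biopython 1.88 and figures drawn with matplotlib 3.10.9. The ratio calculation was tested on a copy of a deposited array with known changes put in, which checks the arithmetic only. Alternatives were quantile normalization, median scaling, floors at the 25th and 75th percentile, log2(signal + floor), a gene taken as the median of its probe sets, and no probe sets with the suffixes _x_at, _s_at or _a_at, which may hybridise to more than 1 transcript.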

Additional observations from a re-analysis of the deposited data

How the results depend on the processing

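Of 808 values of single P450 genes under the alternatives, 793 moved by less than the spread between probe sets, 15 moved by more and 0 changed sign past a call. The median log2 ratio of the P450 genes ranged from -0.40 to -0.14 for mouse genotype, from -0.31 to -0.19 for rat genotype, from -0.10 to -0.04 for mouse leptin and from 0.03 to 0.17 for rat leptin. Counts moved most with the floor at the 25th percentile, which lets in dimmer genes: 3 lower with leptin in mice in place of 1, 2 higher by genotype in rats in place of 0, and 1 lower with leptin in rats in place of 0. The mouse genotype count of 4 higher and 9 lower became 4 and 8 after quantile normalization and 4 and 7 after median scaling, and 5 and 11 or 3 and 8 with the floor at the 25th or 75th percentile, while the split of all genes went from 533 higher and 443 lower to 663 and 353 and to 962 and 235. Median scaling moved the median of all mouse genes from -0.03 to 0.22, so mouse ratios hold relative to that shift. For all genes the split was 984 and 1341 with the lower floor, and 267 and 198 with a floor at the 75th percentile. Cyp2b9 stayed between 4.38 and 6.68, Cyp2b13 between 2.80 and 5.82 for genotype and between -2.46 and -2.25 for leptin. Short of 2-fold under some alternatives were Cyp2c29 (to -0.84), Cyp2c37 (to -0.82), Cyp2d13 (to -0.88) and Cyp2u1 (to -0.91). The suffixes _x_at, _s_at and _a_at were carried by 9 mouse and 4 rat members. Without such probe sets, 4 of 32 measured mouse P450 genes were higher and 7 lower by genotype, and mouse Cyp2c23 had no value. Leaving out a replicate could not be done, and probe sets near the floor limit the dim genes. No paired analysis was possible because each group is 1 array.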
